A study of Mus musculus with 9 samples.

Results

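The 10 genes described here belong to the Wnt signalling pathway, and were chosen by name as secreted antagonists (Sfrp1, Sfrp2, Sfrp5 and Wif1), a ligand (Wnt5a), a receptor (Fzd5), effectors (Ctnnb1 and Lef1) and targets (Axin2 and Lgr5). All 10 were found among the 53280 genes of the count table. They were measured by RNA sequencing of whole neural retina from mouse pups at postnatal day 4 (P4). Knockout pups lacked Opn4, which encodes melanopsin, the light-sensing pigment of a small class of retinal ganglion cells, and wildtype pups were their littermates from matings of heterozygotes. Pups of both genotypes were reared under standard lighting of about 300 lux and killed between ZT6 and ZT7 (6 to 7 h after lights on). Each of the 5 knockout and 4 wildtype samples was a pool of 4 retinas from 2 pups of 1 genotype, sequenced as 1 poly-A RNA library. The sources used here do not give how the Opn4 allele was made, the strain, or the sex and litter of the pups.

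Wnt proteins are secreted signals that bind Frizzled receptors at the cell surface. In the canonical branch, binding stops the breakdown of β-catenin, the product of Ctnnb1, which then enters the nucleus and acts with TCF and LEF factors to switch on target genes. Secreted frizzled-related proteins and WIF1 bind Wnts outside the cell and limit the signal. In the developing mouse retina the pathway is best known for its part at the ciliary margin, the rim of the retina, and in the growth of retinal vessels.

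The libraries held 65530419 to 86132643 counts, all 12 neural retina markers were detected (4037 to 4430 CPM in sum, a gene's counts scaled to library size), and Opn4 was at 1.07 to 1.82 CPM in the knockout pools against 11.4 to 12.03 CPM in the wildtype pools. Knockout pools 1 and 2 stood apart in lens genes, of which 9 of 11 listed were expressed enough to be tested. Over those 9, the mean log2 CPM was 1.05 and 0.72 above the average of all pools, where the other 7 pools lay between −0.47 and 0.10. Wildtype pool 3 stood apart in 7 red blood cell genes, at 1.56 against −0.66 to 0.41 in the others, and 5 of these 7 were lower in knockout (74.0 to 99.6 CPM in sum against 110.5 to 336.5 CPM). Whole retina was measured, so that fewer cells of a type and less RNA per cell cannot be told apart.

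Among the 10 Wnt genes, Lgr5 was higher in knockout retina and the other 9 did not pass the test. Lgr5, a receptor for R-spondins that is itself a Wnt target in other tissues, rose from 9.95 ± 1.36 CPM (SD, n = 4) in wildtype to 18.5 ± 5.32 CPM (SD, n = 5) in knockout. Its log2 fold change was 0.90 (SE 0.18), with an adjusted p of 0.0129 in edgeR's quasi-likelihood test, adjusted by Benjamini-Hochberg over all 21150 genes tested. That is 1 called gene of 10, against 3.59% of all tested genes called in either direction, 1.34% called higher and 2.25% called lower. The median log2 fold change was −0.07 over the 10 genes and 0.0012 over all tested genes, and 7 of the 10 fold changes were negative. At an unadjusted p under 0.05, Fzd5 joined Lgr5, where 16.5% of all genes reached that level. DESeq2 also called Lgr5 alone among the 10, and gave no adjusted p for Sfrp5 and Wif1.

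**Figure D1:**
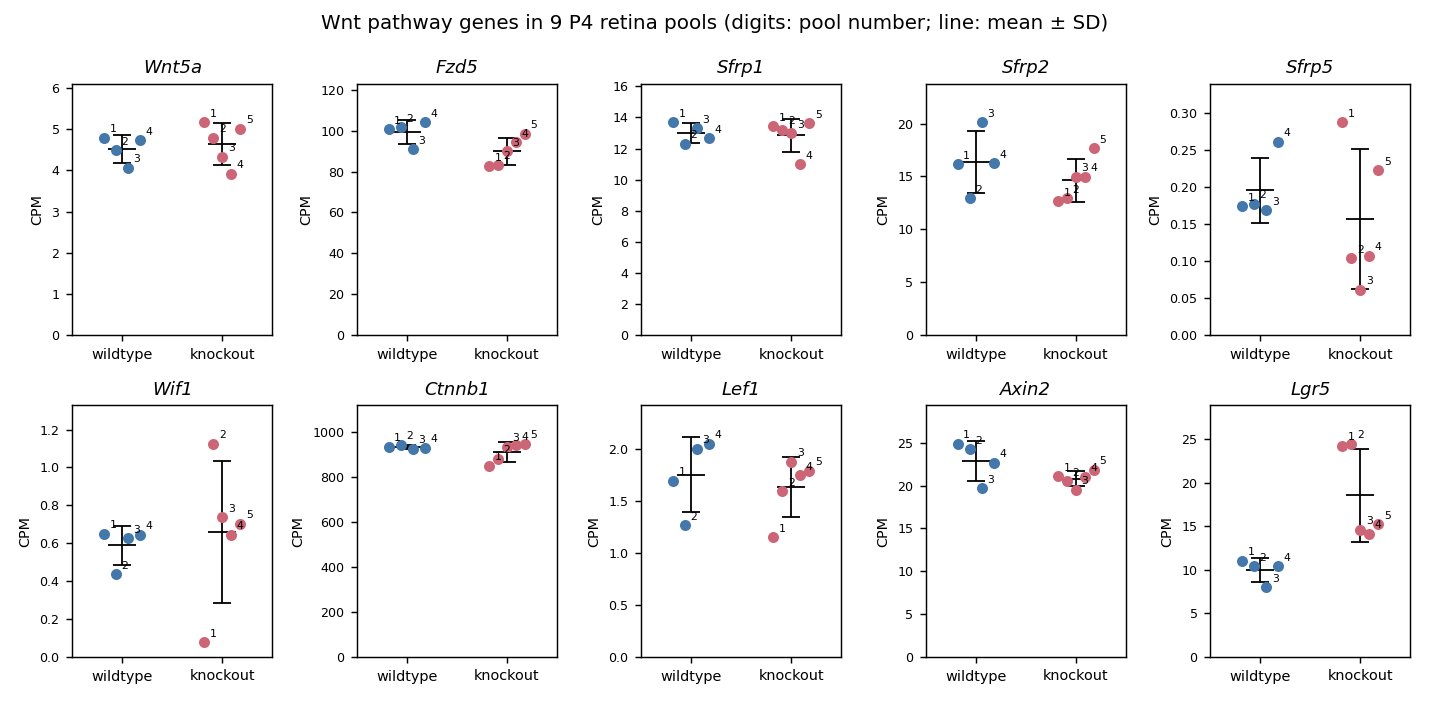
CPM of each of the 10 Wnt genes (y axis from 0) in 4 wildtype and 5 knockout pools, with pool numbers beside the points and the mean ± SD as black lines. Lgr5 is the gene whose knockout pools (14.1 to 24.5 CPM) all lie above its wildtype pools (7.97 to 11.05 CPM).

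In abundance the 10 genes spanned a wide range. On the TPM scale, which corrects for transcript length, Ctnnb1 stood first at 504 ± 25.5 TPM (SD over all 9 pools), far above Fzd5 at 24.4 ± 2.30 TPM. Fzd5 was followed by Sfrp2 at 20.4 ± 4.30 TPM, and their ranges over pools overlapped. Next came Axin2 at 11.9 ± 0.97 TPM and Lgr5 at 7.35 ± 3.10 TPM, whose ranges overlapped with each other through knockout pools 1 and 2. Sfrp1 (5.15 ± 0.35 TPM) lay below Lgr5 in 8 of 9 pools and above Wnt5a (3.17 ± 0.93 TPM) in all 9. Lef1 was at 1.35 ± 0.54 TPM, Wif1 at 0.85 ± 0.24 TPM and Sfrp5 at 0.213 ± 0.12 TPM, each overlapping its neighbour in range. The low genes rest on few reads, with 4 to 22 counts per pool for Sfrp5, 6 to 87 for Wif1 and 88 to 166 for Lef1, and counting error is larger there.

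Wnt5a, a ligand best known for signalling without β-catenin, is encoded on chromosome 14 (28504750 to 28527448, plus strand, GRCm38), 6.06 Mb from Opn4. It was counted at 5.18, 4.80, 4.34, 3.92 and 5.01 CPM in knockout, and at 4.79, 4.50, 4.06 and 4.73 CPM in wildtype. The genotypes overlapped throughout, with a log2 fold change of 0.04 (SE 0.12, edgeR adjusted p = 0.913). The transcript-based values leaned the other way. Summed over 6 transcripts, Wnt5a had 1.66 to 4.11 TPM in knockout and 3.16 to 4.51 TPM in wildtype, a log2(TPM + 0.5) difference of −0.43 (limma adjusted p = 0.361). In the authors' deposited table it had a log2 difference of −0.50 (SE 0.25, q = 0.432), so that no source called it and the sign differed between them. A stretch of the opposite-strand gene Gm2670 matches Wnt5a transcripts exactly, and the sources used here do not say whether counting used strand. Gm2670 held 10 to 20 counts per pool, few beside Wnt5a.

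Fzd5, a Frizzled receptor of eye field and retinal progenitor cells (chromosome 1, 64730558 to 64737751, minus strand), measured 82.8, 83.5, 90.1, 94.4 and 98.5 CPM in the knockout pools. The wildtype pools measured 101, 102, 90.8 and 104 CPM. Knockout pools 1 and 2 were lowest, and wildtype pool 3 lay among the knockout pools. The log2 fold change of −0.15 (SE 0.06) had an unadjusted p of 0.0300 and an adjusted p of 0.239 in edgeR, so it did not pass. The 95% interval of the difference ran from −17.3 to −1.13%. Without knockout pools 1 and 2 the Fzd5 value was −0.078, with an unadjusted p of 0.176 in edgeR. Without wildtype pool 3 the Fzd5 value was −0.185, with an unadjusted p of 0.0075 and an adjusted p of 0.132 in edgeR. In TPM the log2 difference was −0.14 (limma adjusted p = 0.430). Of 12 listed progenitor markers, 7 were lower in knockout and 1 higher. Their level, the mean log2 CPM less that of all pools, was −0.28 in each of knockout pools 1 and 2, −0.16 to −0.06 in the other knockout pools and 0.17 to 0.27 in wildtype. Wildtype pool 3 had the highest progenitor level, 0.27, but the lowest Fzd5 of the wildtype pools. Summed, the progenitor markers came to 2146 to 2623 CPM in knockout and 3167 to 3264 CPM in wildtype, with none at 0. Their part in the Fzd5 values was not tested.

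The 4 secreted antagonists did not differ between genotypes beyond their spread. Sfrp2, a progenitor-expressed antagonist (chromosome 3, 83766321 to 83774316), held 12.7, 12.9, 15.0, 15.0 and 17.7 CPM in knockout and 16.2, 13.0, 20.2 and 16.3 CPM in wildtype. In edgeR Sfrp2 had a log2 fold change of −0.16 (SE 0.12) and an adjusted p of 0.581, with wildtype pool 3 highest and knockout pools 1 and 2 lowest. Leaving out wildtype pool 3 moved the Sfrp2 value to −0.046, and leaving out wildtype pool 2 moved it to −0.26. With knockout pools 1 and 2 removed it was −0.049, and none of these fits called it. Sfrp1 (chromosome 8, 23411502 to 23449632) was the steadiest antagonist, at 12.9 ± 1.07 CPM (SD, n = 5) in knockout and 13.0 ± 0.63 CPM (SD, n = 4) in wildtype. The 95% interval of the Sfrp1 difference, −12.2 to 11.4%, bounds a change in either direction.

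Wif1, which binds Wnts through a domain of its own (chromosome 10, 121033960 to 121100650), was uneven among knockout pools. Knockout pool 1 held 6 counts (0.0784 CPM), and knockout pools 2 to 5 held 1.13, 0.74, 0.64 and 0.70 CPM. The wildtype pools held 0.65, 0.44, 0.63 and 0.65 CPM, within the knockout range. With a log2 fold change of 0.16 (SE 0.48), Wif1 did not pass in edgeR (adjusted p = 0.920). In the mean log2 level of 10 listed genes of the ciliary margin, knockout pool 1 was also lowest, at −0.39 against −0.15 to 0.26 in the other pools. None of the 10 passed, and their sum overlapped (433 to 486.5 CPM in knockout, 419.5 to 452 CPM in wildtype). By that sum knockout pool 1, at 433 CPM, was not the lowest, since wildtype pools 1 and 3 held 424 and 419.5 CPM. The part of these genes in the Wif1 value was not tested. Sfrp5 (chromosome 19, 42197971 to 42202252) had 0.0615 to 0.288 CPM in knockout and 0.169 to 0.261 CPM in wildtype. The 95% interval of its difference, −62.1 to 73.0%, leaves changes of moderate size in either direction undetected.

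β-Catenin is the transducer of the canonical branch and also links cadherins to the cell skeleton. Ctnnb1 (chromosome 9, 120929216 to 120960507, plus strand) was counted at 848, 880, 934, 940 and 946 CPM in knockout, and at 933, 943, 924 and 929 CPM in wildtype. Knockout pools 1 and 2 lay below all others, while knockout pools 3 to 5 lay within or just above the wildtype range. In edgeR the log2 fold change of −0.04 (SE 0.04) did not pass (adjusted p = 0.753), with a 95% interval of −8.41 to 3.98%, the narrowest of the 10 genes. Parts of some Ctnnb1 transcripts match the opposite-strand neighbour Ulk4, which held 581 to 1021 counts per pool against a mean of 71740 for Ctnnb1.

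Lef1 encodes a DNA-binding partner of β-catenin that is itself raised by Wnt signals in many tissues (chromosome 3, 131110471 to 131224356, plus strand). The knockout pools read 1.15, 1.59, 1.88, 1.74 and 1.79 CPM, and wildtype ones 1.69, 1.27, 2.00 and 2.05 CPM. The genotypes overlapped, with a log2 fold change of −0.11 (SE 0.19, edgeR adjusted p = 0.857) and an interval of −30.6 to 24.5%. In TPM the sign was positive, 0.13 (limma adjusted p = 0.853), and knockout pool 5 alone reached 2.73 TPM.

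Axin2, a scaffold of the β-catenin destruction complex, is the most widely used readout of canonical Wnt activity, since the pathway induces it as a feedback brake. On chromosome 11 (108920349 to 108950783, plus strand), it held 21.1, 20.5, 19.5, 21.1 and 21.9 CPM in knockout and 24.9, 24.3, 19.7 and 22.7 CPM in wildtype. Wildtype pool 3 lay among the knockout pools, and the other 3 wildtype pools lay above all of them. The log2 fold change was −0.14 (SE 0.07), which did not pass (edgeR adjusted p = 0.392), and its 95% interval ran from −18.5 to 1.61%. Without wildtype pool 3 the Axin2 value was −0.20 (SE 0.06), with an unadjusted p of 0.00709 and an adjusted p of 0.128 in edgeR. Without wildtype pool 1 it was −0.096 (edgeR adjusted p = 0.631). TPM gave −0.12 (limma adjusted p = 0.526) and the authors' deposited table −0.16 (SE 0.11, q = 0.681).

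Promoter windows from RefSeq on GRCm38.p6, from 250 bases before to 50 after an annotated start, were found for 7 of the 10 genes (Sfrp2, Sfrp5, Wif1, Fzd5, Ctnnb1, Axin2 and Lef1). They were searched for CTTTGA, the core of sites bound by TCF and LEF factors, on both strands. Axin2 and Lef1 are shown because they are the members that β-catenin is best known to induce. The Axin2 window (chr11:108920099-108920398, plus strand) holds no match, and the window of the last of 4 Lef1 starts in the table (chr3:131156044-131156343, plus strand) holds 2, which begin 180 and 120 bases before the start and are given in capitals as read on the plus strand.
Axin2: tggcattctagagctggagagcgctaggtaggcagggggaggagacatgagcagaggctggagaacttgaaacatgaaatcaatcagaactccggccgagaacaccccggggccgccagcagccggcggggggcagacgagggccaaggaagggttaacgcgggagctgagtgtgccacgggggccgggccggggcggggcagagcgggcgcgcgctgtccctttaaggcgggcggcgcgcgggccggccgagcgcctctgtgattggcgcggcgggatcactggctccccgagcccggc
Lef1: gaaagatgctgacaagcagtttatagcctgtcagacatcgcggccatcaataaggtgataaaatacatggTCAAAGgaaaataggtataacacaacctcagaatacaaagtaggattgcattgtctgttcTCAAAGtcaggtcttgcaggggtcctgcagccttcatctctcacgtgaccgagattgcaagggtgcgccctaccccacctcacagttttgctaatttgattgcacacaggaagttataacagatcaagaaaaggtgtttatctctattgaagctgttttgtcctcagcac
The motif was present in 18.2% of the genes in the table (4905 of 26994), and among the 7 members only Lef1 had one. The absence of these letters from the other windows says nothing of sites elsewhere, and neither Axin2 nor Lef1 RNA differed between genotypes by the test.

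Lgr5 was therefore the member that changed. The gene lies on chromosome 10 (115450311 to 115587780, minus strand) and encodes a leucine-rich repeat receptor that raises Wnt responses when R-spondin binds it. It marks stem cells in gut and hair follicle, and in adult mouse retina it has been found in amacrine interneurons. Lgr5 reached 24.2, 24.5, 14.6, 14.1 and 15.2 CPM in knockout, and in the wildtype pools 11.05, 10.4, 7.97 and 10.4 CPM. Every knockout pool was higher than every wildtype pool, as for 8.29% of all tested genes in either direction. Knockout pools 1 and 2 stood well above knockout pools 3 to 5. The rise was 86.4% with a 95% interval of 42.4 to 144%. Exact permutation of the genotype labels gave a two-sided unadjusted p of 0.0238 for the CPM. That p comes from the same counts as the call, so it adds no separate support. Without knockout pools 1 and 2, edgeR gave a smaller log2 fold change of 0.56 (SE 0.11) at an adjusted p of 0.0208, and with any 1 pool left out it was 0.78 to 0.98 (adjusted p 0.0098 to 0.0458).

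The call rested on the gene counts. Summed over 8 transcripts, Lgr5 had 12.3, 13.0, 6.30, 6.93 and 6.60 TPM in knockout and 5.66, 5.45, 4.22 and 5.72 TPM in wildtype, again without overlap. The log2(TPM + 0.5) difference was 0.67 (SE 0.22), with an unadjusted p of 0.0134 and an adjusted p of 0.177 in limma, where 2.16% of 15296 genes were called. Exact two-sided permutation of the summed TPM gave p = 0.0476, or 0.331 after Benjamini-Hochberg adjustment over the 10 members. In the authors' deposited table Lgr5 had a log2 difference of 0.49 (SE 0.33, q = 0.637), where 1.46% of genes had q under 0.05. The most abundant transcript carried 57.4% of the Lgr5 TPM, and measured 6.88, 7.01, 4.18, 4.06 and 4.54 TPM in knockout against 2.91, 2.77, 2.42 and 3.21 TPM in wildtype. Its exact two-sided permutation p of 0.0238 is unadjusted, for a gene picked after its call. An opposite-strand gene that overlaps Lgr5, A930009A15Rik, held 35 to 88 counts per pool against a mean of 1140 for Lgr5, with a log2 fold change of 0.03.

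**Figure D2:**
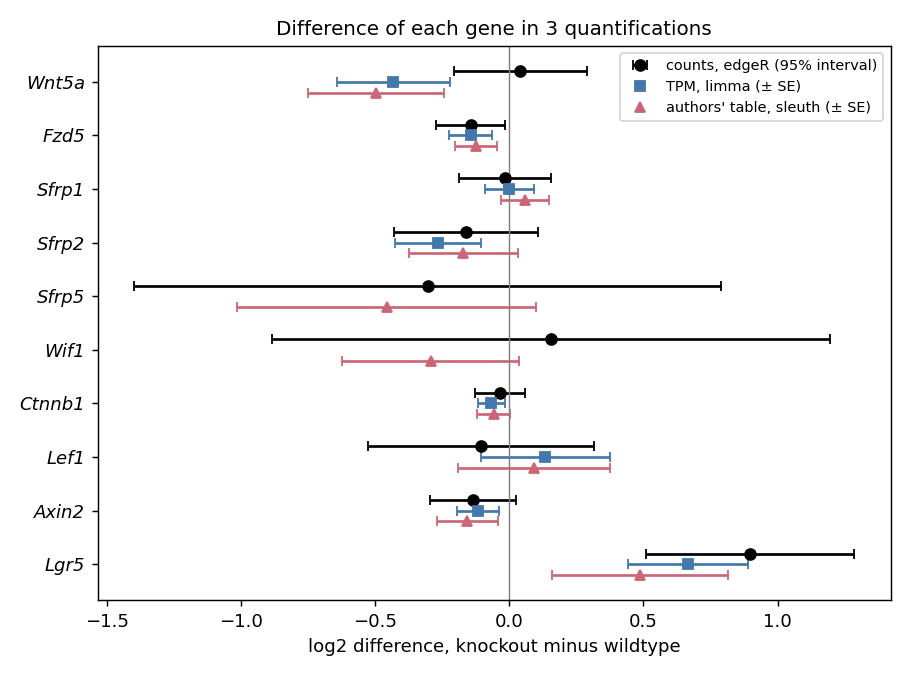
Log2 difference between knockout and wildtype (x axis) for each gene, from counts (black, 95% interval), TPM (blue, SE; Sfrp5 and Wif1 were below the TPM filter) and the authors' deposited table (red, SE). Lgr5 is positive in all 3, at 0.90, 0.67 and 0.49. Wnt5a differs in sign between the counts (0.04) and both others (−0.43 and −0.50), and so does Lef1 (−0.11 against 0.13 and 0.09). Wif1 and Sfrp1 differ in sign between the counts (0.16 and −0.02) and the authors' deposited table (−0.29 and 0.06).

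Within a pool, Lgr5 was compared with Axin2, as another target, and with its close relative Lgr4, both ratios being picked after Lgr5 was known to be called. There were 0.44, 0.43, 0.41 and 0.46 Lgr5 counts for each Axin2 count in the wildtype pools and 1.15, 1.19, 0.75, 0.67 and 0.70 in the knockout pools. The ratio was higher in every knockout pool, by 0.99 on the log2 scale. Since every Lgr5 value was already higher in knockout, this is a description with no test. The Lgr5 to Lgr4 ratio was 0.179 ± 0.05 (SD, n = 5) in knockout and 0.0909 ± 0.0095 (SD, n = 4) in wildtype, likewise as a description. Lgr4 itself was at 103 ± 3.32 CPM (SD, n = 5) in knockout against 109 ± 5.38 CPM (SD, n = 4) in wildtype, with an edgeR adjusted p of 0.412. These ratios do not depend on how libraries are scaled.

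Marker lists of several cell types were read beside Lgr5. Rod genes, of which 7 of 10 were higher in knockout, stood at 0.48 and 0.47 in knockout pools 1 and 2, at 0.13, 0.13 and −0.12 in the remaining knockout pools, and at −0.35 to −0.19 in wildtype. Their sum was 2889 to 4063 CPM in knockout and 2505 to 2757 CPM in wildtype, with none at 0. Lens genes, of which 2 of 9 tested were higher in knockout, were also highest in knockout pools 1 and 2. For lens genes, knockout pools 3 and 4 were at −0.15 and −0.39, beside −0.47 to −0.19 in wildtype. Summed, the 11 lens genes reached 11.6 to 23.2 CPM in knockout and 10.1 to 11.6 CPM in wildtype, with Crygs and Lim2 below 0.1 CPM on average. Amacrine genes did not follow as a list, with 1 of 10 higher and 2 lower and summed levels of 1236 to 1341 CPM in knockout and 1250 to 1328 CPM in wildtype. Prox1 was the higher one (log2 fold change 0.31, edgeR adjusted p = 0.0300), and Ptf1a (−0.79, adjusted p = 0.0175) and Gad2 (−0.29, adjusted p = 0.0302) were the lower ones. Müller glia genes had 2 of 9 tested members higher, Rlbp1 (0.38) and Car14 (0.70), and none lower. Their level was −0.05 to 0.20 in knockout and −0.19 to 0.04 in wildtype, and their sum 1579 to 1835 CPM in knockout and 1623 to 1808 CPM in wildtype, with Abca8a below 0.1 CPM on average. Müller glia genes did not follow Lgr5 pool by pool, at 0.03 in knockout pool 1 and 0.20 in knockout pool 5. The part of these cell types in the Lgr5 values was not tested. By correlation of log2 CPM over the 9 pools, the genes most like Lgr5 among 15744 compared were Padi2 (r = 0.99, rho = 0.93), Hif1a (r = 0.99, rho = 0.93) and Klf9 (r = 0.98, rho = 0.93). This is a description, since the genes were picked as the most extreme and were measured in the same pools. Each of them was itself called higher in knockout (edgeR adjusted p 0.0051 to 0.0393).

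**Figure D3:**
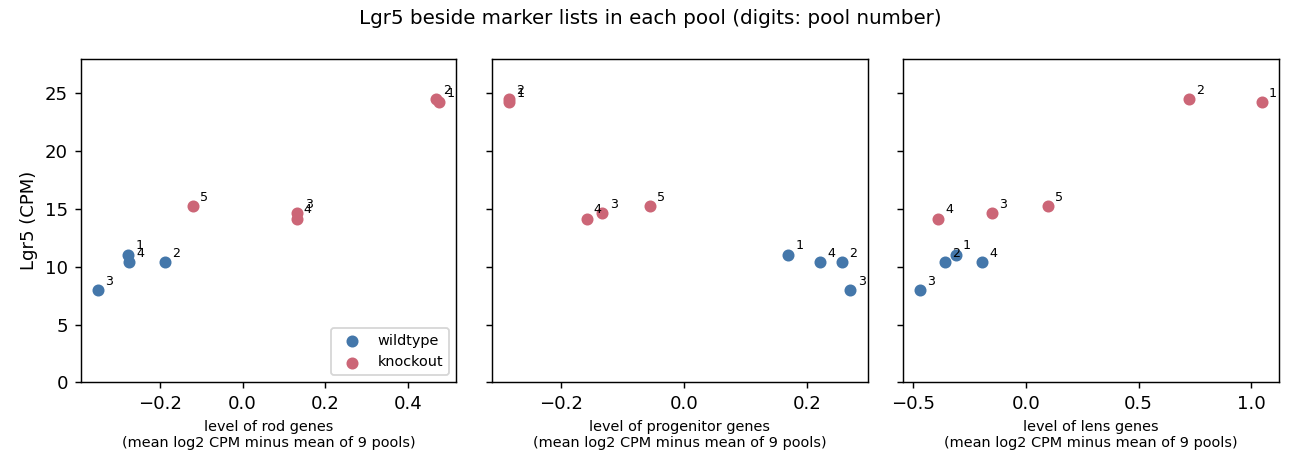
Lgr5 in CPM (y axis from 0) against the level of rod, progenitor and lens marker lists (x axes, mean log2 CPM minus the mean of the 9 pools), 1 point per pool with its number. Knockout pools 1 and 2, at 24.2 and 24.5 CPM, are at the high end for rod and lens genes and at the low end for progenitor genes.

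In the rest of the pathway few genes changed. Of 114 further listed Wnt genes 100 were expressed enough to be tested, a few of them listed under more than 1 role. In knockout 1 was higher and 1 lower, against 3.59% called among all genes. Their median log2 fold change was −0.06, with 60 negative and 40 positive. Ccnd1, the G1 cyclin gene that Wnt induces in other tissues and that progenitors express strongly, fell from 1313 ± 20.1 CPM (SD, n = 4) to 919 ± 137 CPM (SD, n = 5). Single knockout pools read 767, 798, 968, 962 and 1101 CPM against 1295 to 1337 CPM in wildtype, a log2 fold change of −0.51 (SE 0.09) with an edgeR adjusted p of 0.00465. Ccnd1 is also among the 12 progenitor markers, of which 7 were lower. Prickle1, a core planar polarity gene, was higher in knockout, at 22.0 ± 0.77 CPM (SD, n = 5) against 18.4 ± 0.78 CPM (SD, n = 4), with a log2 fold change of 0.26 (SE 0.06) and an edgeR adjusted p of 0.0258. That call was lost without knockout pools 1 and 2 (adjusted p = 0.104) and without any of 6 single pools (adjusted p 0.0534 to 0.0898).

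By role, none of 13 tested ligands passed, and DESeq2 called none. In edgeR 2 of the ligands reached an unadjusted p under 0.05, where 16.5% of all tested genes did, and over all roles 8 of 100 did so higher and 4 lower. Wnt5b, the most abundant of them at 7.25 TPM, was at 9.08 ± 1.17 CPM (SD, n = 5) in knockout against 9.53 ± 0.92 CPM (SD, n = 4) in wildtype. None of 16 receptors passed (2 at an unadjusted p under 0.05, none by DESeq2), and Ryk, a Wnt receptor related to kinases and the highest at 52.7 TPM, had a log2 fold change of −0.02. Of 10 tested antagonists none passed in edgeR and 1 reached an unadjusted p under 0.05, namely Apcdd1, at 18.4 to 21.4 CPM in knockout and 15.2 to 18.2 CPM in wildtype, which DESeq2 called. Dkk3, the highest antagonist at 254 TPM, had a log2 fold change of −0.11. All 5 tested genes of the R-spondin and Lgr group had negative fold changes and none passed, with 0 at an unadjusted p under 0.05 and 0 by DESeq2, so that Lgr5 differed in sign from Lgr4 (−0.08) and Lgr6 (−0.30).

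Inside the cell, none of 16 destruction complex genes passed (1 at an unadjusted p under 0.05, none by DESeq2), and the casein kinase gene Csnk1a1, the highest at 226 TPM, had a log2 fold change of 0.06. The same was true of 11 TCF genes and their partners (1 at an unadjusted p under 0.05, none by DESeq2), with the corepressor Tle1, the highest at 59.6 TPM, at −0.01. Of 12 tested target genes Ccnd1 alone passed, and of 14 planar polarity genes Prickle1 alone, while Scrib, the highest polarity gene at 59.2 TPM, had a log2 fold change of −0.12 (edgeR adjusted p = 0.136). None of 5 genes of Wnt secretion and its glypican carriers passed in edgeR, where Gpc3, called by DESeq2, was the 1 gene at an unadjusted p under 0.05. The acyltransferase gene Porcn, the highest of these at 36.0 TPM, had a log2 fold change of 0.02.

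**Figure D4:**
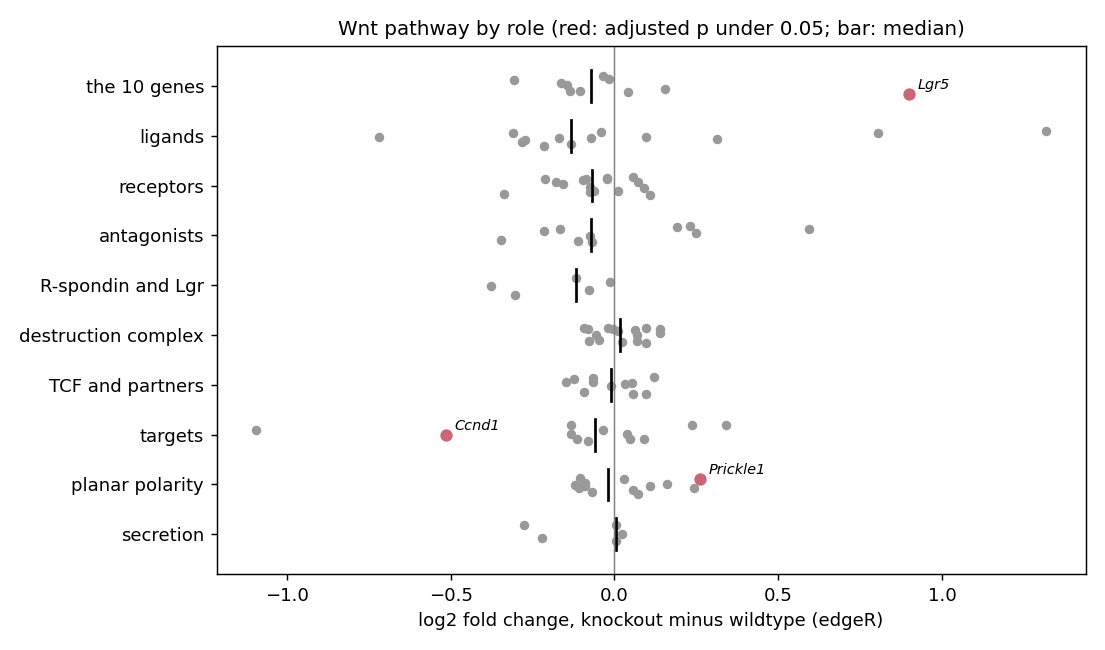
Log2 fold change between knockout and wildtype (x axis) of every tested Wnt gene, grouped by role, with the median of each group as a black bar and genes at an adjusted p under 0.05 in red and named. Lgr5 (0.90), Prickle1 (0.26) and Ccnd1 (−0.51) are the red points, and the group medians lie between −0.13 and 0.02.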

How the data were processed

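Per the labels' design text, reads were trimmed with Trimmomatic 0.39, pseudoaligned to GRCm38 and quantified with kallisto 0.46.1, and genotypes were compared with sleuth 0.30.8. The deposited table of counts holds whole numbers per gene symbol, and the sources used here do not name the program that wrote it. The deposited TPM are a non-negative signal per transcript with column sums of 953963 to 1083977, so they are not plain TPM, and the sources used here do not say how they were scaled. They were summed per symbol. The authors' deposited table gives p-values and q-values, and effects on the natural log scale with wildtype high, re-expressed in log2 with knockout high. Counts were tested with edgeR 4.0.16 (R 4.3.3, filterByExpr, TMM, quasi-likelihood F test, adjusted p threshold 0.05). Genes reaching 1 TPM in 4 or more pools entered limma-trend (limma 3.58.1) as log2(TPM + 0.5), which shrinks changes of low genes. DESeq2 1.42.0, other scalings and filters, left-out pools and a block on pool number were alternatives. CPM used TMM-scaled library sizes, and list levels log2 CPM with a prior count of 2. Positions and overlaps came from GENCODE M21 (GRCm38), near-identical copies from BLAST 2.17.0 (at least 95% identity over at least 50% of the shorter transcript). The edgeR test was tested on simulated data. It recovered 60 of 100 genes changed 1.5-fold and 77 of 100 changed 2-fold, with 9 false calls among 20661 genes. Over the 16 within-genotype pairs of pools, chi-square per gene was 12.6 to 48.1, so none looked like a repeat of the same library. The 10 genes, the other lists and the tests were chosen with earlier results of these data known. All 10 genes are named, with other Wnt genes where they passed the test or were the most abundant of their role.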

Additional observations from a re-analysis of the deposited data

Results flagged for a closer look

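Each gene's CPM and TPM in each genotype was searched for a pool far from the rest of its group, by the gap to its nearest neighbour relative to the range of the group. Of 40 groups examined 4 were found, where chance gives about 1 in 20. Sfrp1 in knockout pool 4 measured 10.99 CPM against 12.98 to 13.64 CPM in the other knockout pools. Sfrp5 in wildtype pool 4 measured 0.261 CPM against 0.169 to 0.177 CPM, on 21 counts. Wif1 in wildtype pool 2 measured 0.436 CPM against 0.627 to 0.650 CPM, on 32 counts. Lef1 in knockout pool 5 measured 2.73 TPM against 0.908 to 1.33 TPM, while its CPM of 1.79 in that pool lay inside the knockout range.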

How the results depend on the processing

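Lgr5 was called in all 18 alternatives of the count test, with log2 fold changes of 0.56 to 0.98 and adjusted p of 0.00175 to 0.0458, and in none of 15 alternatives of the TPM test (0.31 to 0.77, adjusted p 0.101 to 0.333). No other member was called in any of those 18 count alternatives. Over all genes, DESeq2 called 1509 (701 higher, 808 lower) where edgeR called 760 (284 higher, 476 lower). Without knockout pools 1 and 2 there were 486, of which 134 were higher, and without the filter on low counts 152 were higher. With single pools left out, the count of higher genes ranged from 153 to 347. Of the other Wnt genes, DESeq2 called 4 and the fit without knockout pools 1 and 2 called 1, and single pools left out gave 1 to 3. The 2 called by edgeR in the main setting were Ccnd1, which kept its call throughout, and Prickle1, which lost it without each of 6 single pools, without knockout pools 1 and 2 and under the replicate block (adjusted p = 0.0664).

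Signs turned only for genes that did not pass. Without knockout pools 1 and 2, Wnt5a measured −0.035, Ctnnb1 0.0088 and Lef1 0.035. The replicate block, which leaves out knockout pool 5, gave Wif1 −0.15, where the same 8 pools without the block gave 0.13. In TPM Lef1 was −0.063 under the block, and the same −0.063 with knockout pool 5 left out and no block. TPM rescaled to equal column sums gave Sfrp1 0.022. With single pools left out, Sfrp1 ranged from −0.045 to 0.036, Wif1 from −0.13 to 0.44 and Wnt5a from −0.0075 to 0.096, and in TPM Sfrp1 from −0.030 to 0.040 and Lef1 from −0.063 to 0.24. The cause was not tested. Pools share numbers 1 to 4 across genotypes, but same-numbered pools did not deviate together (correlation −0.034 to 0.057 over 4 pairs, 1 of 4 knockout pools correlating best with its own number). With the pool number as a replicate block over those 8 pools, 915 genes were called, against 859 in the same pools without it, a setting added after seeing the data, and Lgr5 measured 0.92 (adjusted p = 0.00298). Sfrp5, Wif1 and Lef1 rest on the fewest counts of the 10 genes, and counting error was not separated from the spread between pools.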

Other observations

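GENCODE M21 places other genes across 7 of the members. One of them, Gm26771 on the strand opposite Sfrp2, was picked after its values were seen. Its knockout pools held 8, 10, 0, 15 and 29 counts and its wildtype pools 44, 27, 31 and 32, with overlap between knockout pool 5 and wildtype pool 2 (log2 fold change −1.38, edgeR unadjusted p = 0.0427, adjusted p = 0.282). Sfrp2 averaged 1211 counts in the same libraries.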
